A study of Mus musculus with 36 samples.

Results

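The control testes of the 2 Brdt mouse lines at 20 days post partum (dpp) were set against each other: 12 of the 36 bead arrays of the study, from 7 of its 24 animals, taken by their labelled sample groups. The knockout line gave 3 animals wild type at Brdt (146, 149 and 157), with 2 arrays each. The line that lacks the first bromodomain of the gene (BD1 deletion) gave 4 control animals: 219 and 191, heterozygous for the deletion, with 1 array each, and 195 and 196, wild type, with 2 arrays each. Arrays of the same mouse were averaged, so that n counts animals. All are labelled C57BL/6, and RNA came from whole testis. Sib numbers in the labels, called litters here, put all 3 knockout-line wild types in litter 1, while the BD1-line controls came from litters 4 (191), 5 (195 and 196) and 6 (219). Line and litter therefore cannot be told apart within the knockout-line group. Homozygous animals at 20 dpp came as a second pair of groups that holds none of these 7 animals: 4 homozygous for the knockout (139 and 140 of litter 2, 148 and 152 of litter 1) and 3 homozygous for the BD1 deletion (193 of litter 4, 197 of litter 5, 222 of litter 6). A further 10 animals of the knockout line were sampled at 17 dpp, 4 homozygous and 6 heterozygous.

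Brdt encodes the testis-specific member of the BET proteins, which bind acetylated histones through a pair of bromodomains and are needed for spermatid chromatin remodelling and gene expression. Stocks kept under the same strain name can carry stretches of chromosome of different origin, in which neighbouring genes are inherited together. A bead-array probe reads a short part of a transcript, so a change in sequence, splicing or amount there can each move its signal. Probe sequences and genotypes along the chromosomes were not analysed here, and the part of any of them in the differences below was not tested.

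Array medians of the 12 arrays lay between 122.01 and 152.89 intensity units, and 17400 to 20016 probes were detected per array. Arrays of 1 animal correlated across probes at a median Pearson r of 0.986, and arrays of different animals in a group at 0.984. Animal 191 stood apart from the other BD1-line controls. Its score on principal component 1, which held 73.4% of the variance over all 24 animals and runs from the younger and mutant testes to the control testes at 20 dpp, was 32.4, while those of 219, 195 and 196 were 70.2, 74.9 and 92.2. The 3 knockout-line wild types scored 61.3, 74.7 and 81.0. Its round spermatid markers averaged 8.64 on the log2 scale, the lowest of the 7 animals. Testis weight was 22.8 ± 0.917 mg (SD, n = 3) in knockout-line wild types and 22.5 ± 2.62 mg (n = 4) in BD1-line controls, a difference of 0.275 mg (exact two-sided permutation test, p = 0.971; the smallest p this design allows is 0.0571). Its sign turned without animal 157 (-0.225 mg), without animal 191 (-0.9 mg) and with wild-type controls 195 and 196 alone (-1.15 mg).

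The sequences that lead on to the first group of genes are those of 3 predicted genes at the start of chromosome 14. The brightest probe of each of these genes was lower in knockout-line wild types than in BD1-line controls, and their promoters share a stretch of sequence. The RefSeq table (GRCm38.p6) held a promoter for 167 of the 197 genes called below, of 300 bases, 250 before and 50 after the transcript start. Capitals mark the longest stretch shared by all 3, of 19 bases. The regions are chr14:3049035-3049334 on the plus strand for Gm2897, chr14:3208243-3208542 on the plus strand for D830030K20Rik and chr14:7105454-7105753 on the minus strand for Gm3696.
Gm2897: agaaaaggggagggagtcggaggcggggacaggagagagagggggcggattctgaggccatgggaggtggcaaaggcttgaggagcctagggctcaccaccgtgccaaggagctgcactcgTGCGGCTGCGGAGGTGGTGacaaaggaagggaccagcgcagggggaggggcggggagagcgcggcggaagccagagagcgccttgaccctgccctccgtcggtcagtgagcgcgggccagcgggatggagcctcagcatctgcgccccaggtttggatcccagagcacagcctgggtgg
D830030K20Rik: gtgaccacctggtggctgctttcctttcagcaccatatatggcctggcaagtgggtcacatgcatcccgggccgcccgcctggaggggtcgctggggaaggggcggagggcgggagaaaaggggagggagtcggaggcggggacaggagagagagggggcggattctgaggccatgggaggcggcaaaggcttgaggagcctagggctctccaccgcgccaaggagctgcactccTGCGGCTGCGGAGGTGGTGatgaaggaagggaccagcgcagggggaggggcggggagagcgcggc
Gm3696: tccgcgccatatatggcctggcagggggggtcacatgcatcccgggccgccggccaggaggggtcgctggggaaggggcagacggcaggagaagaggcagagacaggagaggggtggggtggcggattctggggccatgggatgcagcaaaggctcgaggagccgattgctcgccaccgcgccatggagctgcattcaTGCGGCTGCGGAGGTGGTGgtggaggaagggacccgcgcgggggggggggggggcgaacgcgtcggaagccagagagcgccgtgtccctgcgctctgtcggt
The promoters of Gm2897 and D830030K20Rik share a run of 67 bases at different distances from their starts. Of 27025 genes with a promoter in the table, 15 (0.0555%) hold the shared 19 bases on either strand, and all 15 lie on chromosome 14. Only these 3 of the 15 had a tested probe. Probes of genes that share sequence may bind several of them, so the gene named is uncertain. How alike the transcripts of these genes are was not analysed.

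With limma, 197 of 11529 genes (1.71%) were called between the control groups at a Benjamini-Hochberg adjusted p under 0.05. Of these, 76 (0.659%) were higher and 121 (1.05%) lower in knockout-line wild types, and at least 2-fold differences were found for 30 and 24 of them. The median log2 difference of all genes was 0.01. In 192 of the 197 the animals of the 2 groups did not overlap, which held for 12.9% of all genes tested. At an unadjusted p under 0.05 there were 1422 genes. The count rested on each animal of the small knockout-line group: it was 64 without animal 157, 75 without 146 and 85 without 149, and 115 without control 219. Without animal 191 it was 221. With litter as a random block 33 genes were called, all of them among the 197, and 18 of the 33 lay on chromosome 14.

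Among the largest differences were genes detected in one control group and not in the other. Oit1, the mouse gene for the secreted protein FAM3D, had normalized log2 signals of 7.85, 8.25 and 8.20 in knockout-line wild types 146, 149 and 157, against 4.55, 4.69, 4.65 and 4.59 in BD1-line controls 219, 191, 195 and 196. It was detected on 6 of 6 arrays in knockout-line wild types and on 0 of 6 in BD1-line controls, so that its fold is a bound: at least 6.20-fold higher (limma, adjusted p = 2.86e-07). For such bounds the lower group's signals were raised to the lowest signal of any probe called detected on the same array. Lrrc18, a leucine-rich repeat protein of the testis, had 7.33, 7.65 and 8.14 in knockout-line wild types, against 4.32, 4.35, 4.35 and 4.37 in the same order of BD1-line controls, and was at least 4.73-fold higher (adjusted p = 2.01e-13). Among all 24 animals of the study only those 3 had a raised Lrrc18 signal, since the other 21 lay at most at 4.57.

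Cdh24, a type II cadherin, had 8.84, 9.35 and 9.33 in knockout-line wild types and 5.88, 5.82, 6.34 and 6.04 in BD1-line controls, a log2 difference of 3.15 ± 0.38 (SE; limma, adjusted p = 2.04e-05). Its other probe differed by 1.77 ± 0.22. Wdfy1, an endosomal protein with WD repeats and a FYVE domain whose transcript is known to vary between inbred strains, had 11.84, 11.82 and 12.02 in knockout-line wild types, against 9.33, 9.01, 10.02 and 10.08 in BD1-line controls, a difference of 2.28 ± 0.18 (adjusted p = 2.6e-08). It lies on chromosome 1, and its other probe differed the same way (1.43 ± 0.25). Mrap, an accessory protein of the melanocortin 2 receptor, on chromosome 16, had 8.07, 7.90 and 7.46 in knockout-line wild types and 6.13, 5.82, 5.92 and 4.82 in BD1-line controls, a difference of 2.14 ± 0.39 (adjusted p = 0.00386; 0.153 with litter as a random block). No animal of either group crossed over in these 3 genes.

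In the other direction Cmya5, the muscle protein myospryn, on chromosome 13, had 4.64, 4.64 and 4.60 in knockout-line wild types, against 8.30, 7.66, 7.33 and 8.80 in BD1-line controls. It was detected on no array of knockout-line wild types and on all 6 of BD1-line controls, and was at least 5.38-fold lower (limma, adjusted p = 2.71e-08). Its other probe was also lower (-1.83 ± 0.26). Ttll2, of the tubulin tyrosine ligase-like family, on chromosome 17, had 5.06, 5.33 and 5.11 in knockout-line wild types and 7.19, 6.46, 6.22 and 7.13 in BD1-line controls, a difference of -1.58 ± 0.22 (adjusted p = 0.000117). Asb4, an ankyrin repeat and SOCS box protein on chromosome 6, differed by -1.11 ± 0.16 (adjusted p = 0.000179), with a second probe at -1.32 ± 0.16. Ywhae, which encodes the 14-3-3 epsilon adaptor protein, on chromosome 11, differed by -1.18 ± 0.18 (adjusted p = 0.000647). Ttc22, with tetratricopeptide repeats, on chromosome 4, was detected on no array of knockout-line wild types and was at least 1.79-fold lower (adjusted p = 0.00368; 0.0906 with litter as a random block). Where a group was detected on some of its arrays only, the difference is the measured one. In knockout-line wild types this held for Ttll2 (1 of 6 arrays), Asb4 (2) and Ywhae (3), and in BD1-line controls for Mrap (4). With undetected signals raised to the same floor the differences of these genes were -1.15, -0.61, -0.95 and 1.95. In all, 15 called genes were detected on all arrays of every animal of one group and in no animal of the other on all its arrays, 4 of them in knockout-line wild types and 11 in BD1-line controls.

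**Figure D1:**
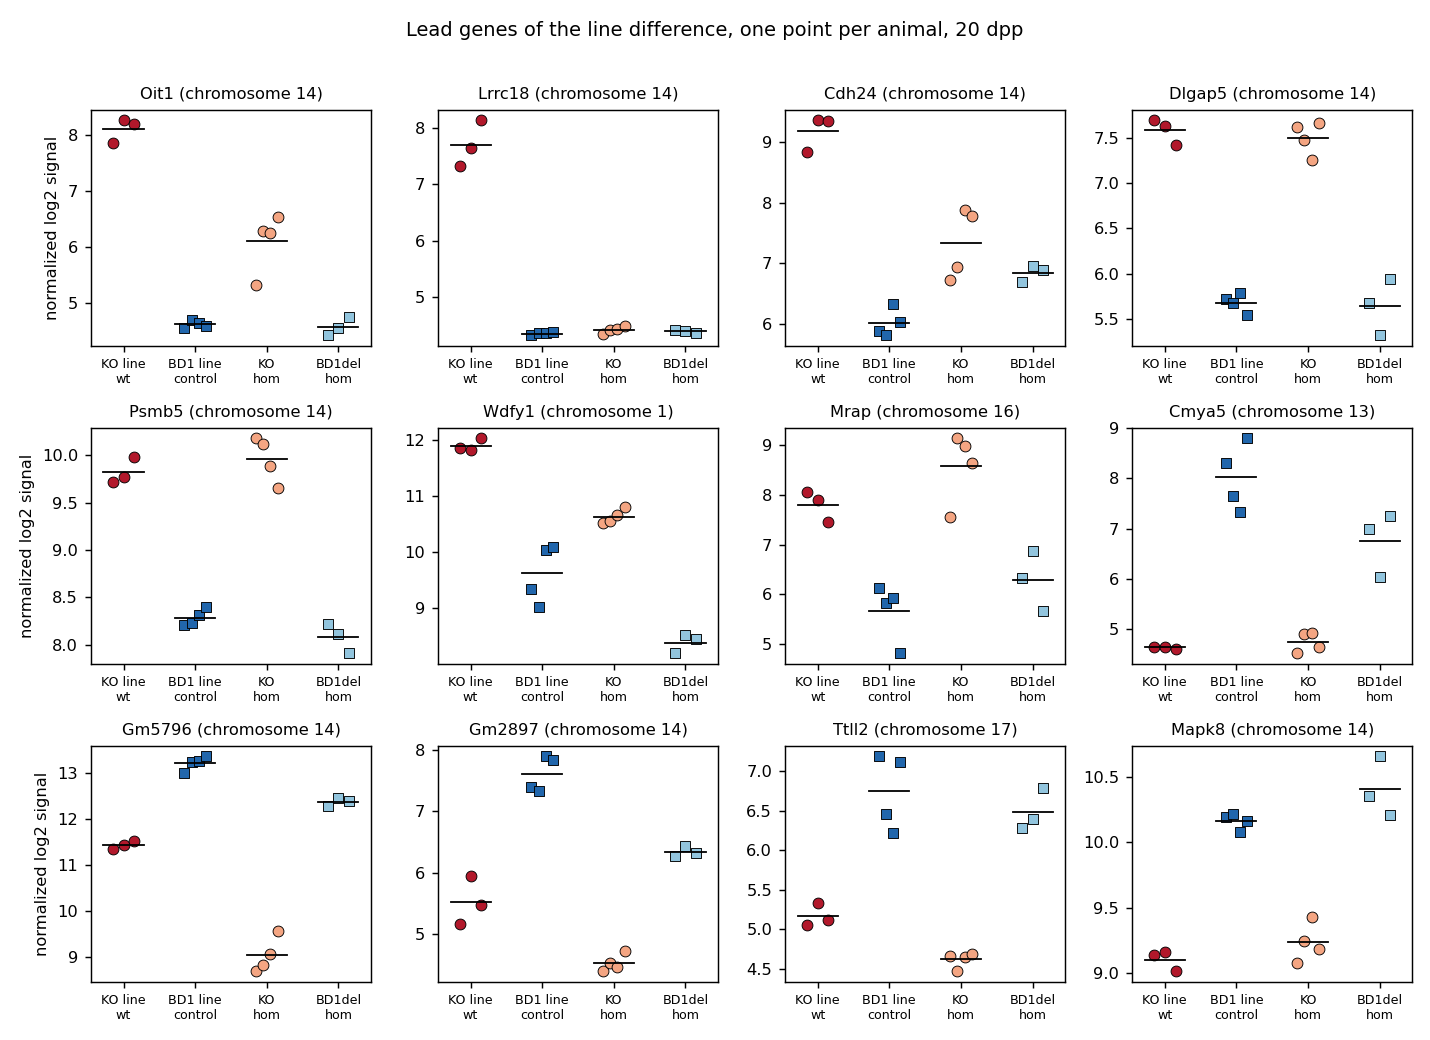
Normalized log2 signal (vertical axes, which do not start at 0) of 12 genes in each animal at 20 dpp, with the group mean as a bar. Knockout-line wild types (dark red circles) and BD1-line controls (dark blue squares) do not overlap in any of the 12, and Lrrc18 is near 4.4 in both homozygous groups.

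The calls of several genes with large differences were lost when 1 animal was left out. Cdkn2b, which encodes the cyclin-dependent kinase inhibitor p15, had 9.08, 8.68 and 8.83 in knockout-line wild types, against 7.99 and 8.54 in heterozygous controls 219 and 191 and 5.45 and 5.18 in wild-type controls 195 and 196. Its difference of 2.07 ± 0.51 (limma, adjusted p = 0.0348) was no longer called without 195 (0.119), 196 (0.081), 146 (0.151), 149 (0.0962) or 157 (0.136). Kpna7, an importin alpha of oocytes and early embryos, had 7.44, 7.68 and 7.75 in knockout-line wild types and 5.47, 5.04, 4.89 and 7.13 in BD1-line controls, of which animal 196 came near the other group (1.99 ± 0.43, adjusted p = 0.0164). It lost its call without 195 (0.0569), 146 (0.0537), 149 (0.07) or 157 (0.089). Mrps27, of the small subunit of the mitochondrial ribosome, differed by 1.61 ± 0.36 (adjusted p = 0.0184) and was not called without 219 (0.0653), 146 (0.077), 149 (0.0759) or 157 (0.0771). Morf4l1b, a relative of the chromatin protein gene Morf4l1, differed by -1.14 ± 0.28 (adjusted p = 0.0318) and kept its call only without animal 191, which lay nearest the knockout line; in the other 6 fits that each left out an animal its adjusted p was 0.0664 to 0.142. Pcna, the sliding clamp of DNA replication, differed by -1.07 ± 0.22 (adjusted p = 0.0091) and lost its call without 146 (0.0531) or 157 (0.0691). The differences kept their sign in every fit that left out 1 of the 7 animals, at 1.54 to 2.66 for Cdkn2b, 1.75 to 2.49 for Kpna7, 1.21 to 1.77 for Mrps27, -1.33 to -1.06 for Morf4l1b and -1.16 to -0.99 for Pcna. With litter as a random block Mrps27 stayed called (adjusted p = 0.0271), while Cdkn2b (0.211), Kpna7 (0.198), Morf4l1b (0.486) and Pcna (0.286) did not. Cdkn2b was detected on 3 and Kpna7 on 2 of 6 arrays of BD1-line controls, with differences of 1.97 and 1.77 at the floor.

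The called genes were unevenly spread over the chromosomes. Chromosome 14 held 33 called genes of 400 tested (8.25%) and chromosome 17 held 30 of 579 (5.18%), against 1.71% of all genes tested. Chromosome 7 held 20 of 894 (2.24%), and each of the other autosomes and chromosome X between 0.481% and 1.8%. Chromosomes 14, 17 and 7 together held 42.1% of the called genes and 16.2% of the tested ones. On chromosome 14, 21 of the called genes were higher and 12 lower in knockout-line wild types, and on chromosome 17 17 were higher and 13 lower. The chromosome 14 count was 18 with litter as a random block, and the chromosome 17 count was then 5. Without animal 146, 149 or 157 the chromosome 17 count was 11, 11 and 10, and without control 219 it was 17.

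**Figure D2:**
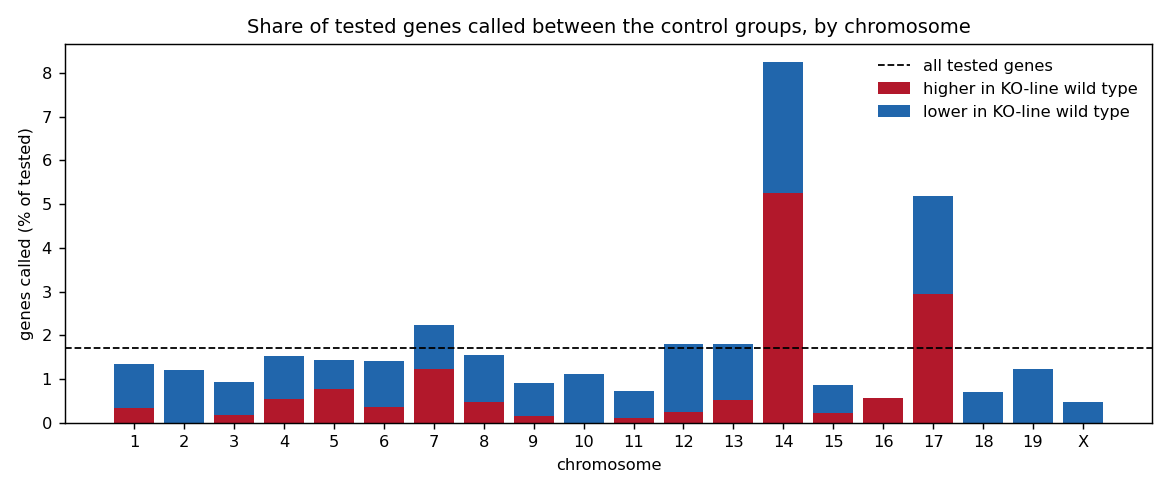
Genes called between the control groups as a percentage of the tested genes of each chromosome (vertical axis, from 0), split into genes higher (red) and lower (blue) in knockout-line wild types, for the autosomes and chromosome X. The dashed line is at 1.71% for all tested genes: chromosomes 14 (8.25%) and 17 (5.18%) stand highest, and chromosomes 7 (2.24%), 12 (1.8%) and 13 (1.79%) also lie above it.

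Along the chromosomes, windows of 20 consecutive tested genes that held at least 5 called genes joined into 5 runs, 3 on chromosome 14 and 2 on chromosome 17. They held 40 of the 197 called genes (20.3%). Called genes stood between genes that were not called, whose median log2 difference was -0.06 in the first run of chromosome 14, 0.18 in the second and 0.05 in the third, and -0.13 and -0.03 in the runs of chromosome 17. The runs are described below as 14a, 14b, 14c, 17a and 17b in their order along each chromosome. Their number is sensitive to the animals, with 3 runs without animal 146 and 2 without animal 157.

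Run 14a spans the 2nd to the 15th of the 400 tested genes in order on chromosome 14, and 6 of its 14 genes were called. Its first 4 called genes were lower in the knockout line. Gm5796 had 11.35, 11.44 and 11.53 in knockout-line wild types, against 13.01, 13.25, 13.27 and 13.36 in BD1-line controls, a log2 difference of -1.78 ± 0.14 (limma, adjusted p = 2.71e-08). Gm2897 had 5.17, 5.95 and 5.47 in knockout-line wild types and 7.39, 7.32, 7.89 and 7.84 in BD1-line controls (-2.08 ± 0.17, adjusted p = 2.71e-08). Gm3696 differed by -1.80 ± 0.24 (adjusted p = 7.32e-05), and its other probe by -1.555 ± 0.207. D830030K20Rik differed by -1.37 ± 0.23 (adjusted p = 0.00148, and 0.08 with litter as a random block). Its other probe was at -0.60 ± 0.23 and was not called (adjusted p = 0.23). Gm2897 and D830030K20Rik were each detected on 4 of 6 arrays of knockout-line wild types. Gm2897, D830030K20Rik and Gm3696 are the genes whose promoters are printed above. The last called genes of the run, Fam107a, a regulator of actin filaments, and Oit1, were higher. Fam107a had 6.20, 6.21 and 6.19 in knockout-line wild types, against 5.32, 5.24, 5.01 and 4.91 in BD1-line controls, where it was detected on no array, and was at least 1.66-fold higher (adjusted p = 0.00552).

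Run 14b spans the 116th to the 131st gene, with 5 of 16 called. Beside Lrrc18 it held Arhgap22, a GTPase-activating protein for Rac1, at 7.48, 7.20 and 7.28 in knockout-line wild types and 5.42, 5.89, 5.16 and 5.30 in BD1-line controls (1.88 ± 0.15, limma, adjusted p = 2.71e-08). It was detected on 1 of 6 arrays of BD1-line controls, and its difference was 1.70 with the floor. Ncoa4, the receptor that carries ferritin to autophagy, differed by 1.52 ± 0.20 (adjusted p = 7.75e-05). Its other probes were at -0.71 ± 0.23 and -0.46 ± 0.22, with adjusted p of 0.134 and 0.36. Mapk8, the kinase JNK1, was lower, at 9.13, 9.16 and 9.01 in knockout-line wild types against 10.19, 10.22, 10.08 and 10.17 in BD1-line controls (-1.06 ± 0.12, adjusted p = 4.57e-06), while its other probes were at 0.15 ± 0.19 and 0.01 ± 0.15. Bmpr1a, a receptor for bone morphogenetic proteins, differed by -0.81 ± 0.17 (adjusted p = 0.0111; 0.054 without animal 146, 0.0643 without 157 and 0.15 with litter as a random block), and its other probe by 0.03 ± 0.12. For Ncoa4, Mapk8 and Bmpr1a the call thus held for the brightest probe of the gene only.

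Run 14c spans the 158th to the 199th gene, and all 13 called genes of its 42 were higher in knockout-line wild types. They were Dlgap5, Tmem260, Pip4p1, Ang, Gm5622, Gm5800, Ndrg2, Supt16, Sall2, Dad1, Prmt5, Psmb5 and Cdh24. Psmb5, the proteasome subunit with chymotrypsin-like activity, had 9.71, 9.77 and 9.98 in knockout-line wild types, against 8.21, 8.23, 8.31 and 8.40 in BD1-line controls (1.53 ± 0.14, limma, adjusted p = 2.25e-07). Dlgap5, a protein of the mitotic spindle, had 7.69, 7.63 and 7.42 in knockout-line wild types and 5.72, 5.67, 5.78 and 5.55 in BD1-line controls (1.90 ± 0.19, adjusted p = 1.34e-06). In both genes the gap between the groups was larger than the range within either.

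Supt16, a subunit of the histone chaperone FACT, had 12.56, 12.68 and 12.76 in knockout-line wild types and 11.23, 10.49, 11.41 and 11.62 in BD1-line controls (1.48 ± 0.19, limma, adjusted p = 5.45e-05), and its other probe was at -0.37 ± 0.17 (adjusted p = 0.346). Pip4p1, a phosphoinositide phosphatase, differed by 1.30 ± 0.13, Ang, which encodes angiogenin, by 1.05 ± 0.15 and Prmt5, the methyltransferase that makes symmetric dimethylarginine, by 0.52 ± 0.09. Gm5800 had 8.74, 8.97 and 9.35 in knockout-line wild types, against 7.44, 6.11, 7.82 and 7.93 in BD1-line controls (1.69 ± 0.27, adjusted p = 0.000946), and its neighbour Gm5622 was at least 1.62-fold higher (adjusted p = 0.000207). With litter as a random block 8 of the 13 called genes of run 14c stayed called. Dad1, of the oligosaccharyltransferase complex, had the least difference of the run at 0.30 ± 0.07, yet its animals did not overlap.

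**Figure D3:**
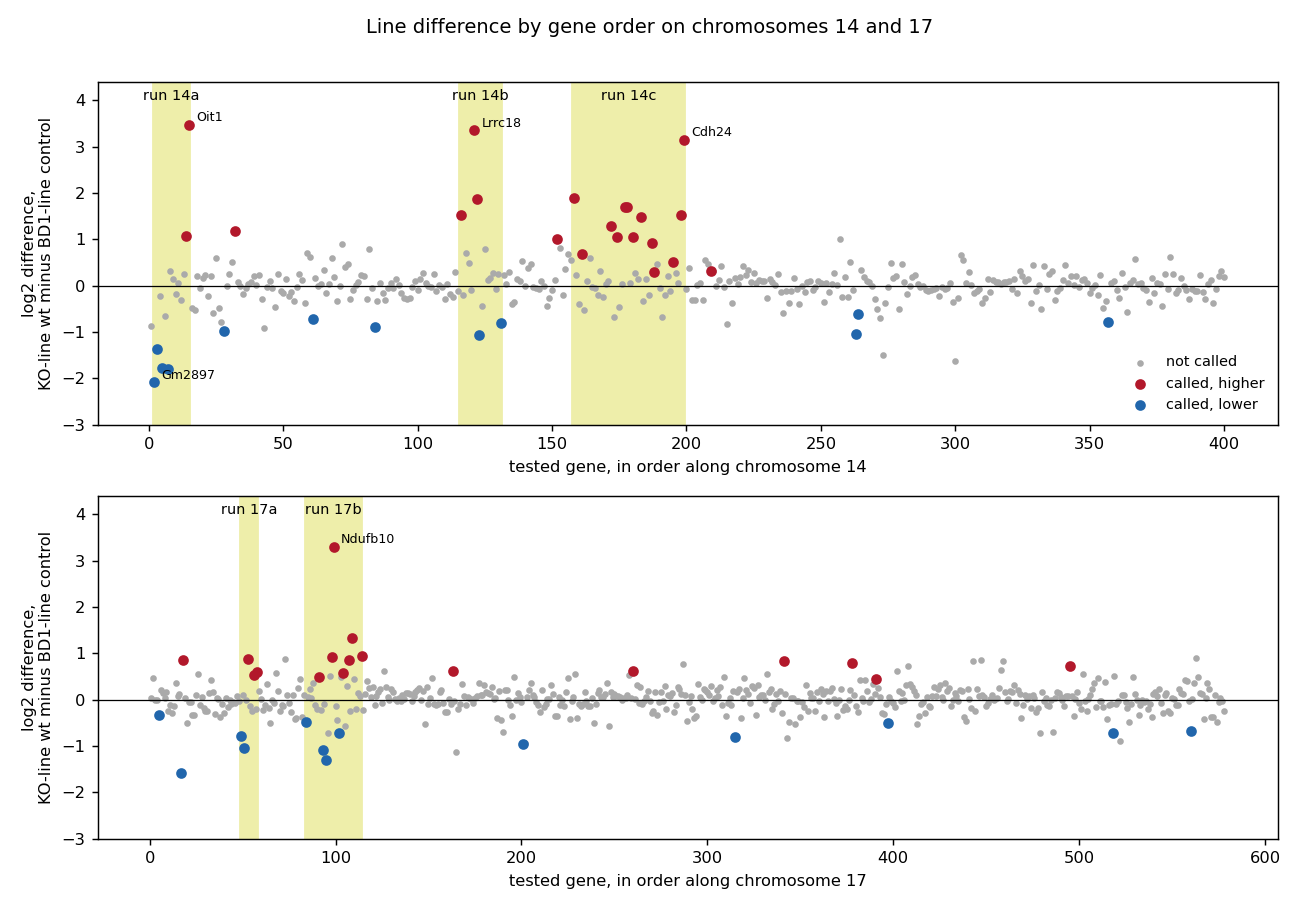
Log2 difference between knockout-line wild types and BD1-line controls (vertical axis, above 0 is higher in knockout-line wild types) for each tested gene in its order along chromosome 14 (upper panel) and chromosome 17 (lower panel). Called genes are red (higher) or blue (lower), and shading marks the 5 runs: in run 14c all 13 called genes lie above 0, while grey genes between them lie around 0.

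Run 17a spans the 49th to the 58th of the 578 genes placed in order on chromosome 17, and 5 of its 10 genes were called. Zfp97, Zfp160, Zfp943 and Zfp213 encode zinc finger proteins and Has1 a hyaluronan synthase. Zfp97 had 7.43, 7.65 and 7.55 in knockout-line wild types, against 8.52, 8.45, 8.00 and 8.31 in BD1-line controls (-0.78 ± 0.14, limma, adjusted p = 0.00309; 0.143 with litter as a random block). Zfp160 (0.88 ± 0.20), Zfp213 (0.60 ± 0.13) and Zfp943 (0.52 ± 0.13) were higher. Has1 was detected on no array of knockout-line wild types and on 5 of 6 of BD1-line controls, and was at least 1.09-fold lower. The calls of Zfp160, Zfp213, Zfp943 and Has1 were each lost without animal 219, 195, 146 or 149, and, Zfp213 excepted, without 157. Their highest adjusted p in these fits was 0.0838, 0.135, 0.164 and 0.106. None of the 5 called genes of run 17a was called with litter as a random block (limma, adjusted p of the 5 from 0.143 to 0.286).

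Run 17b spans the 84th to the 114th gene, with 11 of 31 called, and in it the BD1 line itself was split. Ndufb10, a subunit of respiratory complex I, had 9.74, 9.78 and 9.86 in knockout-line wild types, against 5.56, 5.67 and 5.58 in controls 219, 195 and 196 but 9.13 in control 191. The difference was 3.31 ± 0.67 (limma, adjusted p = 0.00915), 4.19 without animal 191 (adjusted p = 2.14e-05) and no longer called without animal 157 (3.27, adjusted p = 0.0587). Of the homozygous BD1 deletion animals, 193 was at 9.00, 222 at 9.24 and 197 at 5.78. Animals 191 and 193 share litter 4, and 195, 196 and 197 share litter 5. In litter 6 control 219 was low and 222 high. All 17 animals of the knockout line lay between 9.55 and 10.2.

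The other probe of Ndufb10 ran the opposite way, at 7.89, 7.99 and 7.74 in knockout-line wild types 146, 149 and 157, against 9.35, 8.83, 9.39 and 9.37 in BD1-line controls 219, 191, 195 and 196. Its difference was -1.36 ± 0.22 (limma, adjusted p = 0.000988). Only Ndufb10 and Polr1d, a subunit shared by RNA polymerases I and III, of 4386 genes with several probes had probes called in opposite directions. Polr1d, named after its values were seen, had probes at -0.89 ± 0.20, 0.82 ± 0.12 and 0.49 ± 0.10.

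Mapk8ip3, a scaffold protein of the JNK pathway, showed the same order of animals in run 17b. It had 6.78, 6.13 and 6.38 in knockout-line wild types, against 4.66, 4.71 and 4.73 in controls 219, 195 and 196 and 6.26 in control 191 (limma, adjusted p = 0.0197; 6.8e-05 without 191). It was detected on 1 of 6 arrays of BD1-line controls, so that its measured log2 difference of 1.34 was 0.73 with their signals raised to the floor. Its call was lost without 219 (0.0747), 195 (0.061), 146 (0.135) or 157 (0.0777), and its other probe was at -0.04 ± 0.19. Clcn7, the lysosomal chloride-proton exchanger, had 8.66, 8.36 and 8.70 in knockout-line wild types, with control 191 at 8.23 and controls 219, 195 and 196 at 7.62, 7.23 and 7.41 (0.95 ± 0.18, adjusted p = 0.00615; 0.0598 without 157). Rps2, a protein of the small ribosomal subunit, had 14.93, 14.83 and 14.86 in knockout-line wild types, with control 191 at 14.67 and controls 219, 195 and 196 at 13.70, 13.87 and 13.57 (0.93 ± 0.15, adjusted p = 0.00148), and its other probe was at 0.14 ± 0.10.

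Gfer, a sulfhydryl oxidase of mitochondria, was lower, at 10.47, 10.34 and 10.62 in knockout-line wild types, with control 191 at 11.24 and controls 219, 195 and 196 at 11.88, 11.89 and 12.05 (-1.29 ± 0.15, limma, adjusted p = 1.03e-05). With litter as a random block 3 of the 11 called genes of run 17b stayed called, among them Gfer and Rps2. Ndufb10 (adjusted p = 0.0718), Mapk8ip3 (0.0902), Clcn7 (0.0799), Slc9a3r2 (0.0671) and Meiob (0.177) did not. Over the 11 called genes of the run, control 191 lay nearest to the knockout-line wild-type mean in 9. Over all 197 called genes it was nearest in 61 and over all tested genes in 1993 of 11529. Among the homozygous BD1 deletion animals, 193 lay nearest to the homozygous knockout mean in 8 of the 11 genes, 222 in 3 and 197 in 0. Over all 197 called genes these counts were 81 for animal 193, 64 for 222 and 52 for 197. Over all 11529 tested genes they were 5008, 1920 and 4601, so animal 193 was often the nearest outside the run too. Slc9a3r2, a scaffold of the sodium-proton exchanger NHE3, did not follow this order, with 7.22, 7.03 and 7.26 in knockout-line wild types and 8.63, 8.12, 8.07 and 8.17 in BD1-line controls (-1.08 ± 0.21, adjusted p = 0.00656; 0.0522 without 149). Meiob, which binds single-stranded DNA in meiotic recombination, had 10.67, 10.70 and 10.49 in knockout-line wild types and 11.27, 11.44, 11.26 and 11.37 in BD1-line controls (-0.72 ± 0.14, adjusted p = 0.00557; 0.0586 without 157).

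**Figure D4:**
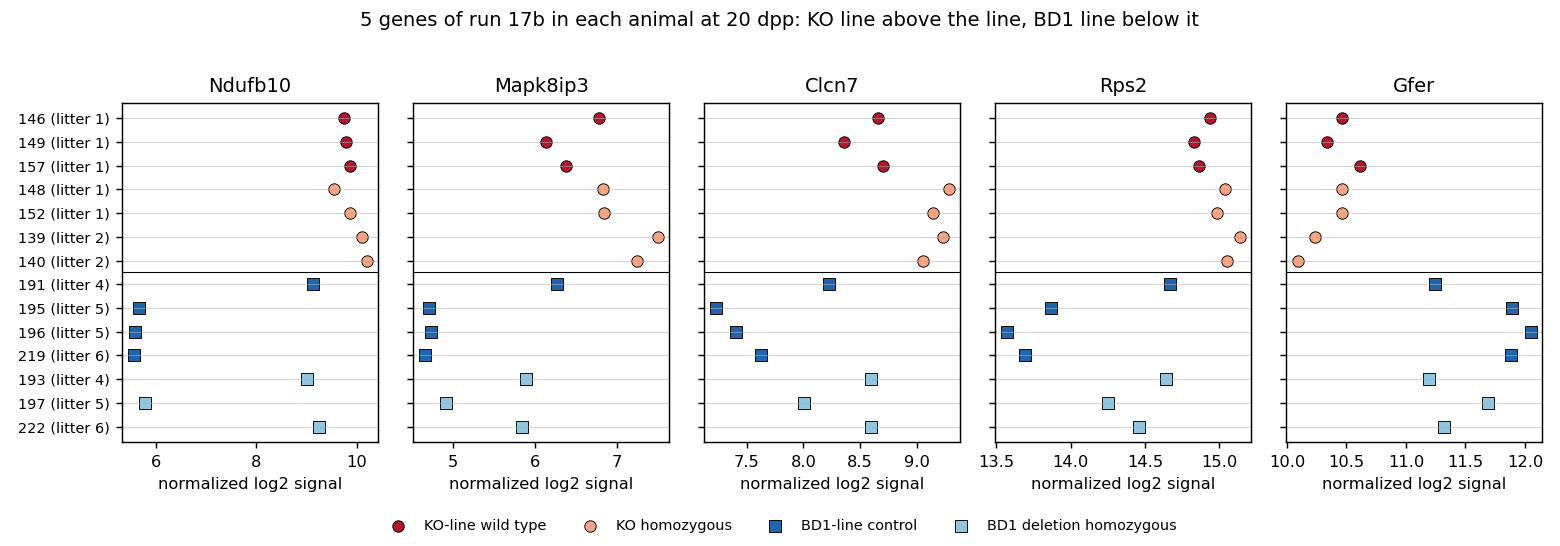
Normalized log2 signal (horizontal axes, which do not start at 0) of 5 genes of run 17b in each animal at 20 dpp, listed by animal and litter. Knockout-line animals (circles) are above the dividing line and BD1-line animals (squares) below it. In Ndufb10 animals 191 and 193 of litter 4 and 222 of litter 6 have signals of 9.00 to 9.24, and the other BD1-line animals 5.56 to 5.78. The signals of 191, 193 and 222 are near those of the knockout line but lower than in every knockout-line animal.

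On chromosome 7 the 20 called genes formed no run. The largest difference there was that of Hbb-b2, an adult beta-globin, which RefSeq places off the main sequence of the chromosome and which was left out of the gene order. It had 4.88, 4.64 and 4.76 in knockout-line wild types, against 7.29, 7.11, 7.40 and 5.34 in BD1-line controls 219, 191, 195 and 196. It was detected on no array of knockout-line wild types and on 5 of 6 of BD1-line controls, and was at least 2.28-fold lower (limma, adjusted p = 0.00147). All 17 animals of the knockout line lay at 4.45 to 4.97, below all 7 of the BD1 line. Beta-globin copies are near-identical and their number and alleles differ between inbred strains, so which copy was read is uncertain. Brdt itself lies on chromosome 5, and 0 of the 40 tested genes nearest to it were called. The share called was 1.43% on chromosome 5 and 1.71% of all genes tested, so a count of 0 among so few genes says little.

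The line difference in the homozygous animals gave a second look at the same genes. There the allele differs as well as the line, and litters 1, 4, 5 and 6 are shared with the controls, so the pairs of groups share families. Of all genes, 1950 (16.9%) were called between homozygous knockout and homozygous BD1 deletion animals, 1043 higher and 907 lower. Of the 197 genes called between the controls, 183 had the same sign in the homozygous pair, against 57.3% of all genes, and 110 (55.8%) were called in the same direction, against 12.3% of all genes. None was called in the opposite direction, and 14 had the opposite sign. A test of the difference between the 2 line differences called 144 genes (1.25%), and 10 of the 197. The homozygous count was 547 without animal 222 and 1153 without 139, and with median scaling it was split into 397 higher and 1077 lower genes. The 144 became 83 without animal 191, 35 without 149, 40 without 157, 31 without 222, 65 without 139, 63 without 140 and 303 without 196.

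Psmb5 was 1.87 ± 0.14 higher in homozygous knockout than in homozygous BD1 deletion animals (limma, adjusted p = 9.51e-09), Supt16 2.08 ± 0.19, Arhgap22 1.89 ± 0.15, Dlgap5 1.85 ± 0.19 and Mrap 2.29 ± 0.39. Mapk8 was at -1.18 ± 0.12 (adjusted p = 5.16e-07). Ttll2 and Cmya5 were detected on no array of homozygous knockout animals and were at least 2.00-fold and at least 2.40-fold lower there. In run 14c, 11 of the 13 genes were called in the same direction and in run 14a 5 of 6. In run 17b the figure was 6 of 11. Over the whole study, 131 genes (1.14%) had all 17 knockout-line animals, 10 of them at 17 dpp, beyond all 7 BD1-line animals. Of these, 61 were among the 197 called genes, and 20 lay on chromosome 14, 5% of its tested genes.

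For 6 of the named genes called between the controls, the test of the difference between both line differences was past the threshold. Brdt, not called between the controls, was past it too and is described below. Of the 6, however, 2, Lrrc18 and Gm5800, were detected on no array of either homozygous group. No homozygous line difference was measurable for these 2, so the test does not compare its size with that in controls. Lrrc18 was at 4.34 to 4.48 in the 4 homozygous knockout animals and 4.37 to 4.42 in the 3 homozygous BD1 deletion animals. Gm5800 lay at 4.36 to 4.77 in homozygous knockout and 4.49 to 4.73 in homozygous BD1 deletion animals. Oit1 was at 5.33, 6.27, 6.25 and 6.54 in homozygous knockout animals 139, 140, 148 and 152 and at 4.43, 4.55 and 4.76 in homozygous BD1 deletion animals, where it was detected on no array. Its measured difference was smaller in homozygous animals by 1.96 (limma, adjusted p = 0.0332), and by 2.06 with undetected signals raised to the floor. Cdh24, detected on all arrays of the 4 groups, was less different in homozygous animals (by 2.67, adjusted p = 0.0152). Gm5796 went the other way, with a homozygous difference of -3.34 ± 0.14 against -1.78 ± 0.14 in controls (adjusted p of the difference 0.000166). Meiob was called in controls and not in homozygous animals (homozygous difference 0.06 ± 0.14, adjusted p of the difference 0.0425).

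**Figure D5:**
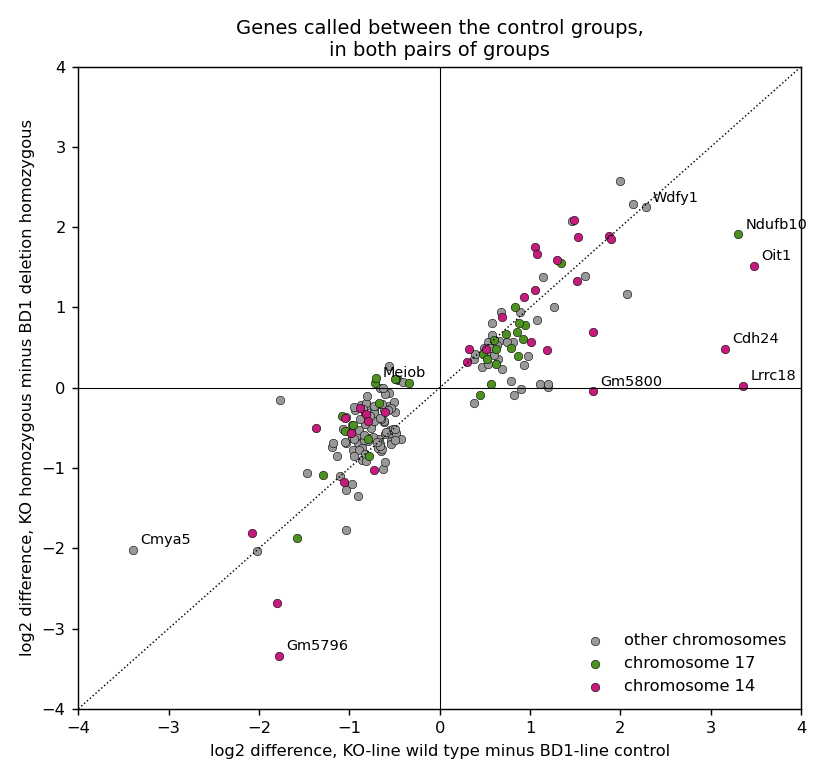
Log2 difference between the lines for the 197 called genes, in controls (horizontal axis, knockout-line wild type minus BD1-line control) and in homozygous animals (vertical axis, homozygous knockout minus homozygous BD1 deletion), with chromosome 14 in magenta and chromosome 17 in green. Of the genes, 183 lie in the quadrants of equal sign, while Lrrc18, Gm5800 and Cdh24 lie far below the dotted line of equal difference.

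Brdt was not called between the control groups. Its brightest probe had 11.50, 11.61 and 11.44 in knockout-line wild types, against 11.36, 10.75, 11.59 and 11.73 in BD1-line controls. The log2 difference was 0.16 ± 0.30 (limma, adjusted p = 0.927), and its sign turned without animal 191 (-0.04). The other probe of Brdt differed by 0.24 ± 0.21 and was not called either (limma, adjusted p = 0.744). In homozygous animals, where the allele differs as well as the line, Brdt differed by -2.51 ± 0.30 (limma, adjusted p = 7.06e-06). The difference between both line differences was 2.67 ± 0.43 (limma, adjusted p = 0.00206). Of 15 measured BET genes and partners 0 were called between the control groups, beside 1.71% of all genes tested, so this count says little either.

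Of the 24 gene lists 17 members were called, and no list of a testis cell type held more than 1. The measured members are given list by list, to be set beside the 1.71% called of all genes tested. No measured marker was called of spermatogonia (0 of 20, median log2 difference -0.05), pachytene and diplotene spermatocytes (0 of 19, 0.02), elongating spermatids (0 of 17, 0.62), Sertoli cells (0 of 21, -0.04) and peritubular, vascular and stromal cells (0 of 18, -0.10), beside a median of 0.01 over all genes. The elongating spermatid markers averaged 8.55, 8.61 and 9.92 in knockout-line wild types 146, 149 and 157. They averaged 7.95 and 7.14 in heterozygous controls 219 and 191, and 9.40 and 9.57 in wild-type controls 195 and 196. All 17 elongating spermatid markers had a mean above that of BD1-line controls in knockout-line wild types (differences of 0.04 to 0.93), against 52.5% of all genes. Of the round spermatid markers 26 of 33 did. These averaged 9.57, 9.69 and 10.17 in knockout-line wild types, 9.36 and 8.64 in 219 and 191, and 9.90 and 10.17 in 195 and 196. In both lists only the heterozygous controls lay below all knockout-line wild types, so the shared direction is not one against wild-type controls alone. In whole testis fewer cells of a type and less RNA per cell cannot be told apart. Early meiotic prophase had 1 of 17 called, Meiob. Among 33 round spermatid genes Gopc, a Golgi protein needed for acrosome formation, was lower, and among 12 Leydig cell genes Agt, which encodes angiotensinogen (-0.95 ± 0.19). Gopc was detected on 1 of 6 arrays of knockout-line wild types, and its measured difference of -0.95 was -0.46 with undetected signals raised to the floor. Hbb-b2, which was lower, was the 1 called gene of 19 in the blood cell and macrophage list. Most of that list went the other way, with 16 of 19 genes higher on average in knockout-line wild types (median log2 difference 0.15).

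In the remaining lists, the chaperones Hsp90aa1 (-0.56 ± 0.13) and Hspa5 (-1.04 ± 0.24) were lower, 2 of 20 stress and heat shock genes. Of 20 major histocompatibility complex genes, H2-Ab1, the beta chain of a class II molecule (0.63 ± 0.14), and H2-M3, a class Ib molecule (0.83 ± 0.21), were higher. Of 14 transcripts known to vary between inbred strains Wdfy1 was higher and Glo1, glyoxalase 1, lower: Glo1 had 10.50, 10.38 and 10.28 in knockout-line wild types and 11.46, 11.30, 11.39 and 11.23 in BD1-line controls (-0.96 ± 0.15, limma, adjusted p = 0.000974). Ssty1, of a multi-copy spermatid family of chromosome Y (1.20 ± 0.25), was higher, 1 of 8. Of 30 ribosomal protein genes Rps2 and Rpl30 (0.58 ± 0.13) were higher. Of 41 respiratory chain genes Ndufb10 was higher, and Sdhd, of succinate dehydrogenase (-1.04 ± 0.20), and Ndufb5, of complex I (-0.52 ± 0.12), were lower. Idi1, isopentenyl-diphosphate isomerase, was lower, 1 of 14 cholesterol synthesis genes. It was detected on 1 of 6 arrays of knockout-line wild types, and its measured difference of -0.83 was -0.51 at the floor. None was called of 6 epididymis, 14 immediate early, 13 circadian clock, 17 interferon-stimulated, 31 replication-dependent histone, 30 glutathione and detoxification and 8 Speer family genes. In the same order of lists 3, 12, 1, 14, 20, 13 and 3 of these genes were higher on average in knockout-line wild types, against 52.5% of all genes. A one-sided direction without calls was thus not limited to the spermatid lists.

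Of these list members Wdfy1, Glo1, Rps2 and Hbb-b2 kept their calls whichever of the 7 animals was left out, and also with litter as a random block. The block ended the calls of the other 13 (limma, adjusted p from 0.0718 for Ndufb10 to 0.518 for Hspa5). These 13 also lost theirs without at least 1 animal: Sdhd without 146 (adjusted p = 0.0531), Meiob and Ndufb10 without 157, Agt without 149 or 157 (up to 0.0761), Hsp90aa1 and Ssty1 without 146 or 157 (up to 0.131 and 0.0989), and Gopc without 219, 196, 149 or 157 (up to 0.208). Hspa5 lost its call without 191, 195, 146 or 157 (up to 0.142), H2-Ab1 without 195, 146, 149 or 157 (up to 0.139), and H2-M3 without 219, 195, 146 or 149 (up to 0.201). Rpl30 lost it without any animal but 219 and 191 (up to 0.125), Ndufb5 without any but 191 (up to 0.192) and Idi1 without any but 195 and 196 (up to 0.223). Of the 55 called genes named by the rule, 16 kept their call under every alternative, 11 of them on chromosome 14 and 3 on chromosome 17. The 16 were Oit1, Lrrc18, Cdh24, Dlgap5, Arhgap22, Psmb5, Ncoa4, Supt16, Gm2897, Gm5796, Mapk8, Ttll2, Gfer, Glo1, Wdfy1 and Cmya5. The naming rule itself favoured these chromosomes, since it took genes from each run and all runs lie on chromosomes 14 and 17. The split by chromosome among the 16 therefore partly reflects how genes were named.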

How the data were processed

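Whole-testis RNA was hybridised to Illumina mouse bead arrays. The authors deposited unnormalized probe signals as intensity on a linear scale, each with a detection p-value. GenomeStudio 2011.1 is named in the submitters' processing notes; background subtraction is not stated. The authors' processed matrix, also deposited as intensity (column medians 133.8 to 133.91, normalization unstated), served as an alternative only.

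Signals went through neqc (limma 3.58.1, offset 16, R 4.3.3, statmod 1.5.0, data.table version 1.17.8), which corrects background by normexp, normalizes by quantiles and takes log2. Repeat arrays were averaged per mouse. A probe was kept if its detection p was under 0.01 on every array of at least 3 animals (21190 probes), and each gene was read from its brightest probe. The platform annotation names a single gene for 34885 of 45281 probes, several genes for 18 and none for 10378, and 34807 symbols were brought up to date by Entrez identifier through RefSeq (GRCm38.p6), which also gave the gene order. limma (lmFit, eBayes with intensity trend) was fitted over all 6 groups and 24 animals with Benjamini-Hochberg adjustment over all genes; the procedure was tested on simulated data. P-values measure the spread between animals within groups, pooled over the 6 groups. Knockout-line wild types came from 1 litter, so a spread between litters of that group is not measured. The small numbers of animals and litters limit the precision.

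The members and gene lists were chosen with earlier results of these data known. The rule for named genes took Brdt, then in each direction the 15 strongest called changes in which groups did not overlap and every mouse on the high side had detection, then at most 3 called genes per list (by adjusted p), at most 6 per run (by size), and any called among 20 genes to either side of Brdt. Genes outside the rule were picked with their values known. Testis weights went into an exact permutation test (Python 3.11.15, scipy 1.17.1; plots with matplotlib 3.10.9). Alternatives varied normalization, filter, fitted samples, litter, single arrays, brightness, a round spermatid covariate and each animal in turn.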

Additional observations from a re-analysis of the deposited data

Results flagged for a closer look

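In 5 of 112 groups of 4 animals tested among the named genes, 1 animal lay far from the other 3; chance gives such a gap in about 1 of 20 groups. In BD1-line controls animal 191 was far above the others in Ndufb10 (9.13, with the nearest at 5.67) and in Mapk8ip3 (6.26, with the nearest at 4.73), and below them in Morf4l1b (6.92, with the nearest at 7.61). Animal 196 was below the other BD1-line controls in Hbb-b2 (5.34, with the nearest at 7.11). Homozygous knockout animal 148 was above the other 3 in Asb4 (4.91, with the nearest at 4.63).

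The measured line difference in controls minus that in homozygous animals was past the threshold in limma for 6 named genes called between the controls. For Lrrc18 (3.34, adjusted p = 4.23e-10; 2.28 with undetected signals raised to the floor) and Gm5800 (1.74, adjusted p = 0.0242) neither homozygous group was detected on any array, so that no homozygous line difference was measurable. Oit1 (1.96, adjusted p = 0.0332) was detected on no array of either BD1-line group, so that both its line differences are bounds. The others of the 6 were Cdh24 (2.67, adjusted p = 0.0152), Gm5796 (1.56, adjusted p = 0.000166) and Meiob (-0.78, adjusted p = 0.0425). Brdt, not called between the controls, was past the threshold as well (2.67, limma, adjusted p = 0.00206).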

How the results depend on the processing

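Of the 55 named called genes none changed sign under any alternative; 29 kept their call whichever of the 7 control animals was left out, 25 with litter as a random block (correlation 0.375), 28 in a fit of the 2 groups alone, 39 with wild-type BD1-line controls only, 43 with heterozygous ones only, 50 with median scaling and 53 with the authors' processed matrix. Brdt, not called in any fit, turned to -0.14 with wild-type controls, -0.046 with litter as a block, -0.12 with the round spermatid covariate and ran from -0.041 (without animal 191) to 0.28 (without 196) with each animal left out. Genes called between the controls (197) came to 359 with every probe singly, 58 in the 2-group fit, 553 with heterozygous controls only, 33 with litter as a random block, 318 with arrays singly and brightness as a block, 363 with the round spermatid covariate, and 64 to 232 with each animal left out. In alternatives chosen after seeing the data, the dimmer arrays (controls 219, 195 and 196) gave 960 and the brighter ones (191, 195 and 196) 24; the brightness boundary of 132.8 lay between the arrays of 219 (132.75) and 191 (132.85). The cause was not tested. Chromosome 14 (33) had 18 with litter, 70 in dimmer and 14 in brighter arrays. Chromosome 17 (30) had 6 in the 2-group fit, 17 with 20 dpp groups only, 5 with litter, 49 with the covariate, 86 in dimmer and 5 in brighter arrays, and 10 to 33 with each animal left out. Runs (5) came to 2 without the detection filter, 2 in the 2-group fit, 15 with heterozygous controls, 2 with litter, 33 in dimmer and 0 in brighter arrays, and 2 to 6 with each animal left out. List members called (17) came to 32 with every probe, 6 in the 2-group fit, 10 with wild-type and 47 with heterozygous controls, 4 with litter, 28 with brightness as a block, 48 in dimmer and 2 in brighter arrays, and 7 to 19 with each animal left out. The homozygous count (1950) came to 3098 with every probe, 1159 with litter, 727 with the covariate and 547 to 1974 with each animal left out. The difference of both line differences (144) came to 95 without background correction, 95 in the authors' matrix, 219 with every probe, 52 with 20 dpp groups only, 296 with arrays singly, 419 with brightness as a block, 24 with the covariate and 31 to 303 with each animal left out. Testis weight differed by -1.15 mg with wild-type controls only and by -0.9 to 1.2 mg with each animal left out. Deviations of arrays with the same replicate number in the labels correlated at -0.0559 to 0.548. These values do not settle whether arrays of the same number share an effect, and samples were not paired by it. With arrays singly and a replicate block 311 genes, 8 runs, 26 list members and 371 differences of differences were called. With arrays singly and no such block the counts were 251, 5, 22 and 296. Slide was not run as a block, since no file names it, and the difference of differences has no 2-group fit.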

Other observations

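Probes that the platform annotation gives no single gene symbol were not named. Of 3190 such probes kept, 17 were higher and 36 lower in knockout-line wild types than in BD1-line controls (limma over all kept probes, 1.66% called, against 1.71% of the named genes).

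Among the other called genes of chromosome 7, named after their values were seen, Kctd14 (log2 difference 1.46), Gm5114 (1.20) and Plekhf1 (1.14) were higher in knockout-line wild types, and Eed (-0.62), a subunit of the Polycomb complex PRC2, and its neighbour 2310010J17Rik (-0.90) were lower. Kctd14, Gm5114 and Hbb-b2 were the genes of this chromosome called with litter as a random block (limma, adjusted p of 0.0423, 0.0403 and 0.0209).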
